A study of Mus musculus with 51 samples.

Results

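Nucleotide excision repair is the pathway that cuts bulky lesions, such as those left by ultraviolet light, out of DNA. Lesions are found in 2 ways: in the genome at large by XPC and the DDB complex, or where RNA polymerase II has stalled on a transcribed strand, through the Cockayne syndrome proteins. Both routes then bring in the TFIIH helicases, XPA and a pair of nucleases that cut on either side of the lesion. HMGN1, a nucleosome-binding protein that loosens chromatin, is known to be needed for efficient repair of this kind in mouse fibroblasts, and the question asked of these arrays was whether transcripts of the repair genes differ when HMGN proteins are lost or added.

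The 10 genes described here were listed by name as core genes of this repair and a DNA break sensor that assists it: Xpc, Ddb2, Ercc6, Ercc8, Ercc2, Ercc3, Xpa, Ercc1, Ercc5 and Parp1. They were taken from 18193 genes on the array and are read by 24 of its 45037 probe sets, counting only probe sets that the platform annotation gives solely to 1 of them. Parp1, Ercc1 and Ercc8 had 4 probe sets each, Xpa had 3, Ddb2, Ercc2 and Ercc5 had 2 each, and Xpc, Ercc3 and Ercc6 had 1 each. Of the 24, 18 rose above the dim-signal floor in at least 1 cell type, and only these were tested: 4 for Parp1, 3 for Ercc1, 2 each for Ddb2, Ercc2 and Ercc8, and 1 for each other gene.

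The study hybridized 51 Affymetrix mouse expression arrays in 17 groups of 3. In primary mouse embryonic fibroblasts (MEFs, strain C57BL/6), HMGN1, HMGN3 or HMGN5 knock out cells each had a wild-type (WT) group of their own. SV40-transformed MEFs received a retrovirus for HMGN1, HMGN1_N2swap, HMGN1_N3swap, HMGN2, HMGN3a, HMGN5 or HMGN5SE, against an empty vector. MIN6 cells, a mouse pancreatic beta cell line, received HMGN1 or HMGN3a, against an empty vector. Every infected group, the vector groups included, went through polybrene at 5 µg/ml, puromycin at 1 µg/ml for 7 days and 24 h without selection, and the same text stands on the primary MEF samples. Infected cells were kept as pools rather than clones, and the labels give the swap and SE constructs by these names only. All 7 SV40 constructs share the same 3 vector arrays, and both MIN6 constructs share theirs. Nothing in the labels says that replicates came from separate cultures or animals, so p-values measure the spread between these arrays. On the log2 scale, Y-linked Eif2s3y read 5.85, 1.28 and 5.23 in HMGN1 knock out arrays, and 1.54, 6.50 and 5.38 in HMGN5 knock out arrays. Neither of these groups was therefore repeats of 1 culture, while in the other groups the spread may be technical.

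Levels are log2 intensities, on which a difference of 1 is a factor of 2, and each change is the first-named group minus its control, ± its standard error (SE). A gene was called when limma's adjusted p over all genes of that cell type was below 0.05, using its brightest probe set. The 3 cell types were normalized apart, so levels are set side by side only within a cell type. In RNA from bulk cultures, fewer cells of a type and less RNA per cell cannot be told apart.

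Targets and arrays were checked first. The brightest Hmgn1 probe set averaged 10.59 in HMGN1 knock out MEFs and 11.25 in their WT (n = 3 each), and the brightest Hmgn3 probe set averaged 6.25 in HMGN3 knock out MEFs and 7.54 in their WT. The Hmgn5 probe set ran against its label, at 5.69 in the arrays labelled HMGN5 knock out and 4.97 in their WT. A probe outside the deleted part or the construct checks nothing, and where these probes lie was not tested. In SV40 MEFs Hmgn1 read 12.25 with the HMGN1 construct and 12.26 with the vector. Hmgn5 was lower with the HMGN5 construct, at 7.62, and read 8.50 with HMGN5SE, against 8.55 with the vector. The brightest Hmgn3 probe set with HMGN3a read 9.25 against 9.48 in SV40 MEFs, and 11.59 against 11.37 in MIN6. In MIN6 the brightest Hmgn1 probe set read 12.50 with the HMGN1 construct and 12.54 with the vector. All 10 fibroblast markers on the array lay above the dim-signal floor in primary cells, 9 did so after SV40 transformation and 2 in MIN6, while 8 of 8 beta cell markers did so in MIN6 and 2 in each kind of MEF. The 3′ minus 5′ signal of Actb, a sign of RNA quality, was 0.39 to 0.79 in HMGN1_N2swap, 0.47 to 0.77 in HMGN1_N3swap and 0.007 to 0.196 in HMGN2 arrays, against 0.23 to 0.29 with the vector, and 1 HMGN5SE array reached 0.39. Mean Xist was 7.32 and 7.03 in the swaps and 6.16 to 6.55 over the HMGN2 arrays, against 4.82 with the vector.

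To show promoter sequence of genes called in the same comparison, the 250 bases before an annotated start of each gene are given for 2 pairs. Xpa and Ercc5 were both higher with HMGN1 in SV40 MEFs, but went opposite ways with HMGN2, and Ercc1 and Ercc8 were both higher with each swap construct. They are from RefSeq on build GRCm38.p6, on the gene's strand, 5′ to 3′, and 7 of the 10 genes matched that table. Capitals mark matches on either strand to CCAAT, to GGGCGG (the GC box), to TATAAA or to TGCGCA (the core of an NRF1 site), which do not overlap each other as searched. The windows are chr4:46196312-46196561 (minus strand) for Xpa, chr1:44147494-44147743 (plus) for Ercc5, chr7:19344821-19345070 (plus) for Ercc1 and chr13:108158488-108158737 (plus) for Ercc8. The start used is not always the outermost 1. On that build the Ercc1 and Ercc5 gene spans begin at 19344067 and 44146948, so these windows lie inside the gene. The Xpa and Ercc8 windows run across the gene boundary, at 46196344 and 108158711.
Xpa: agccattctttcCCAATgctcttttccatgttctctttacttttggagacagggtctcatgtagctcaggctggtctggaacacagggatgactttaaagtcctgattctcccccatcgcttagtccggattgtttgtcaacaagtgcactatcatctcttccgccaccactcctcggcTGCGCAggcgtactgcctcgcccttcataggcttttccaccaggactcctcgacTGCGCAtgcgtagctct
Ercc5: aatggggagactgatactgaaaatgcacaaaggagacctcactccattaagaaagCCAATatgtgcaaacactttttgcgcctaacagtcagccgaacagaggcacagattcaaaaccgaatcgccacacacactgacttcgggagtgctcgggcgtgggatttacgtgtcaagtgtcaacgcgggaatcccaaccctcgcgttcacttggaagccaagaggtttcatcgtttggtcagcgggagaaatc
Ercc1: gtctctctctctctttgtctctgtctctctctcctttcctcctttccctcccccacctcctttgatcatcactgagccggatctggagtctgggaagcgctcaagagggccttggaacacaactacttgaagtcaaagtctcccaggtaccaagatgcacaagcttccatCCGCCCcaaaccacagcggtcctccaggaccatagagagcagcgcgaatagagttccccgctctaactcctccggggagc
Ercc8: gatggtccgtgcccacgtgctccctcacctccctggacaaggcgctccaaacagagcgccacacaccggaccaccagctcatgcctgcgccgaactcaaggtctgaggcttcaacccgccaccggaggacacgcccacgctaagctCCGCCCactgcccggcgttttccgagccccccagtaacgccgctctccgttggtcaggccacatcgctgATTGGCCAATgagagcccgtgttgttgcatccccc

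The Ercc8 window held a GC box and a pair of adjoining CCAAT matches on opposite strands, and 20 CpG sites. The Ercc1 window held 1 GC box and 8 CpG sites. Xpa and Ercc5 each held 1 CCAAT match, and Xpa also held 2 TGCGCA matches near its start, with 10 and 14 CpG sites in the Xpa and Ercc5 windows. Over all 32851 mouse promoters in the table the median was 6 CpG sites, 33.85% held CCAAT, 32.74% the GC box, 12.37% TATAAA and 6.432% TGCGCA. None of the 7 matched windows held TATAAA, and 4 held CCAAT, 5 the GC box and 2 TGCGCA. A match is a description of the letters in the window only.

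Loss of an HMGN protein moved none of the 10 repair transcripts past the test in primary MEFs. With limma, 0 of 10 were called in HMGN1 knock out cells against their WT (0.439% of all genes were called), 0 of 10 in HMGN3 knock out cells (0.585%) and 0 of 10 in HMGN5 knock out cells (0.0731%). At an unadjusted p below 0.05, 1 of 10 members passed in each comparison: Parp1, Ercc5 and Xpa in that order. Of all 13674 genes, 2121, 1158 and 764 passed at that level. The medians of the members' changes were 0.002, -0.037 and 0.000, against -0.018, -0.007 and -0.003 over all genes.

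In HMGN1 knock out MEFs the 95% intervals of the 10 changes, by the brightest probe sets, lay between -0.385 and 0.237 on the log2 scale. Parp1, which senses DNA breaks and attaches poly(ADP-ribose), had the lowest change. Its arrays read 6.08, 6.31 and 6.28 in HMGN1 knock out cells, against 6.51, 6.38 and 6.39 in WT, and the groups did not overlap. The change was -0.20 ± 0.07 (limma adjusted p = 0.183), and replicate 1 of the knock out was the lowest array. The 3 other Parp1 probe sets gave -0.36, -0.37 and 0.01, none past the test over all probe sets (adjusted p = 0.125, 0.113 and 0.978). The last of these was dim, at 2.15 in both groups against a floor of 1.99.

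Xpa, which verifies the lesion, read 5.14, 5.18 and 5.26 in HMGN1 knock out cells, against 5.22, 5.13 and 5.25 in WT. The change was -0.01 ± 0.08, with a 95% interval of -0.17 to 0.15. Xpc, the lesion sensor, read 3.64, 3.90 and 4.08 in HMGN1 knock out cells, against 4.02, 3.87 and 4.05 in WT, and the arrays overlapped. Ercc1, a subunit of the 5′ nuclease, and Ercc5, the 3′ nuclease, changed by 0.06 ± 0.05 and 0.03 ± 0.07. Ercc3, a TFIIH helicase, read 6.16, 6.17 and 6.20 in HMGN1 knock out cells, against 6.27, 6.21 and 6.25 in WT. Those arrays did not overlap, with a change of -0.07 ± 0.08, and 2 of 10 members had groups that did not overlap, against 21% of all genes.

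Other genes of the same pathway gave 3 of 43 lower and 0 higher in HMGN1 knock out MEFs, where 0.351% of all genes were lower and 0.0878% higher. Hmgn1 (-0.67 ± 0.05), counted among the 3, is the deleted gene, so its fall is no separate result. The others were Pole2, a DNA polymerase epsilon subunit (-0.56 ± 0.11), and Rpa1, which coats single-stranded DNA (-0.46 ± 0.08). The limma adjusted p was 2.08e-06, 0.0358 and 0.0256. In the same arrays the mean level of 14 mitosis genes was 5.40 to 5.72, against 5.94 to 6.23 in WT, with 0 of 14 called and a median change of -0.52. The mean of Y-linked signals, each scaled between its lowest and highest primary MEF array, gave a male index, which is not a fraction of cells. It was 0.018 to 0.687 in HMGN1 knock out arrays, against 0.005 to 0.018 in WT. The part of either in these values was not tested. None of the 43 was called in HMGN3 or HMGN5 knock out MEFs.

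In HMGN3 knock out MEFs the most negative member change was in Ercc5, with 5.38, 5.48 and 5.38, against 5.77, 5.52 and 5.48 in WT. The difference was -0.18 ± 0.07 (limma adjusted p = 0.457). In HMGN5 knock out MEFs it was in Xpa, with 5.00, 5.05 and 5.01, against 5.16, 5.35 and 5.24 in WT, a change of -0.23 ± 0.08 (adjusted p = 0.57). The groups did not overlap in either case, nor did those of 15.9% and 11.1% of all genes in these comparisons. Ercc5 in HMGN5 knock out MEFs did not overlap either and was higher, at 5.33 to 5.34 against 5.14 to 5.26 in WT. The male index was 0.026, 0.790 and 0.367 in HMGN5 knock out arrays, against 0.76 to 0.88 in their WT. Macrophage and leukocyte markers averaged 4.14 to 6.48 in HMGN5 knock out arrays, against 4.83 to 5.58 in their WT. The part of the index or the markers in these values was not tested. Tests of the differences between the knock out effects called 0 of 10 members in each of the 3 pairs (0.505%, 0.161% and 0.424% of all genes). In those tests the lowest Parp1 values were -0.31 ± 0.10 for HMGN1 against HMGN5 (adjusted p = 0.223) and -0.21 ± 0.10 for HMGN1 against HMGN3 (adjusted p = 0.413).

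By the brightest probe sets, WT groups of the 3 sets differed among themselves in 3 repair transcripts, by up to 0.53. The largest change of a member against its own WT by these probe sets was 0.23. Other Parp1 probe sets gave -0.36 and -0.37 in HMGN1 knock out MEFs. Ercc1 read 8.16, 8.07 and 8.10 in HMGN5 WT, against 7.63, 7.71 and 7.71 in HMGN1 WT, a difference of 0.42 ± 0.05 (limma adjusted p = 6.14e-05). Ercc1 also lay 0.53 ± 0.05 above HMGN3 WT, while HMGN5 knock out MEFs averaged 8.08, beside their own WT at 8.11. Xpa read 4.96, 4.67 and 4.68 in HMGN3 WT, against 5.22, 5.13 and 5.25 in HMGN1 WT, a difference of -0.43 ± 0.08 (adjusted p = 0.000666). Ercc5 was lower in HMGN5 WT, with a difference of -0.42 ± 0.07 from HMGN1 WT and of -0.38 ± 0.07 from HMGN3 WT. In all, 1 of 10 members was called between HMGN3 WT and HMGN1 WT (31.5% of all genes), 2 between HMGN5 WT and HMGN1 WT (11.7%) and 3 between HMGN5 WT and HMGN3 WT (17.2%). The male index was 0.76 to 0.88 in HMGN5 WT, 0.67 to 0.75 in HMGN3 WT and 0.005 to 0.018 in HMGN1 WT. With that index as a covariate, the Ercc5 value between HMGN5 WT and HMGN1 WT was -0.37 (adjusted p = 0.102). Macrophage and leukocyte markers averaged 4.83 to 5.58 in HMGN5 WT and 5.71 to 5.85 in HMGN3 WT, against 4.73 to 4.76 in HMGN1 WT. Fibroblast markers averaged 9.95 to 9.98 in HMGN5 WT and 10.39 to 10.47 in HMGN3 WT, against 9.70 to 9.85 in HMGN1 WT. Their part in these differences was not tested.

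**Figure D1:**
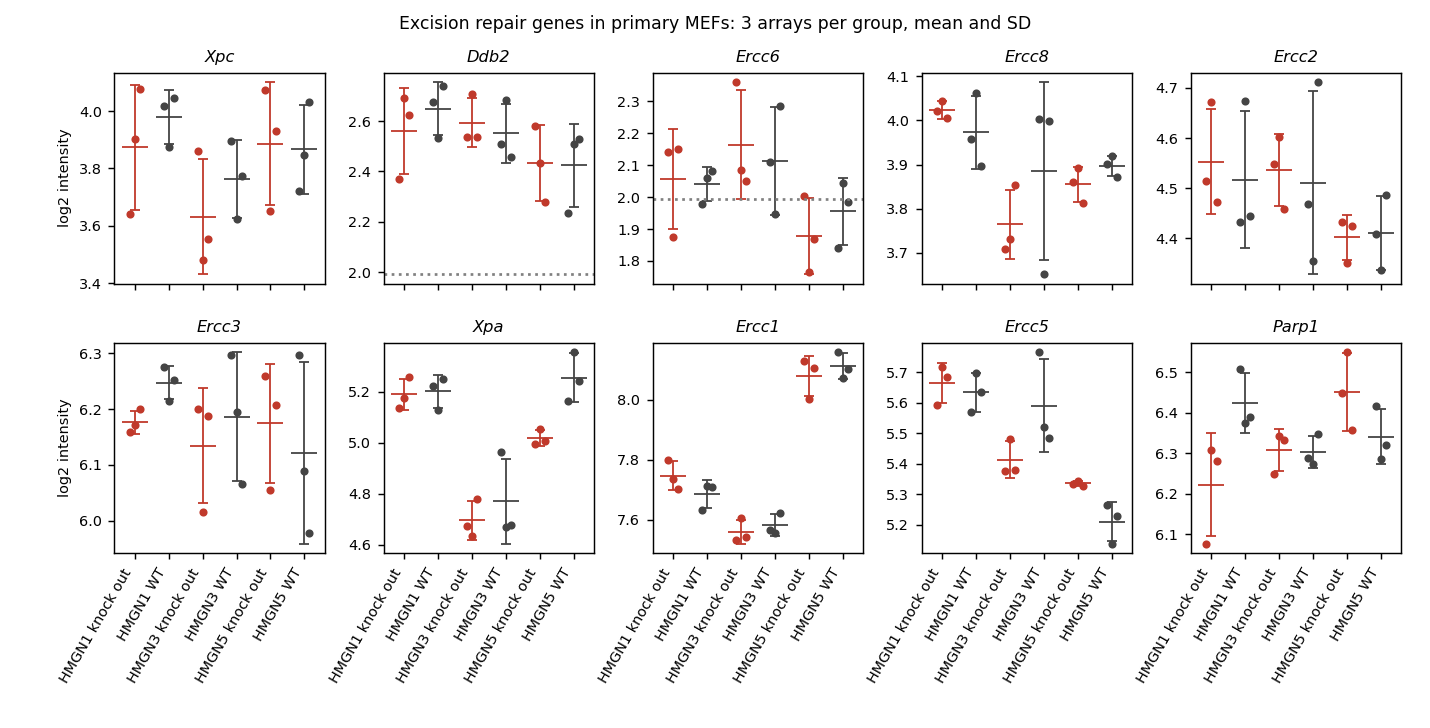
Log2 intensity of the 10 repair genes in primary MEFs, 1 point per array, with the group mean and SD (n = 3) and each knock out (red) left of its WT (grey). The dotted line is the dim-signal floor where it falls in the panel. For Ercc1, Ercc5 and Xpa the largest difference between WT groups exceeds the largest within a set, though not every pair of WT groups differs. Ddb2 and Ercc6 lie closest to the floor.

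Ddb2 and Ercc6 were dim in these fibroblasts. Ddb2 read 2.23 to 2.74 over the 18 arrays and Ercc6 averaged 1.88 to 2.16 over the 6 groups, against a floor of 1.99, so their changes there are the least informative.

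In SV40 MEFs the picture split by construct. Members were called with 5 of the 7 constructs, and the 25 calls over all 12 comparisons with a control, out of 118 tests, were 10 higher and 15 lower. HMGN3a and HMGN5SE moved 0 of 10 members by limma, with 0.0297% and 0.0148% of all genes called. Neither moved a member at an unadjusted p below 0.05, where 1466 and 704 of all 13469 genes passed. HMGN1 raised 3 of 10 and lowered none, where 29.4% of all genes were called, 17.4% higher and 12.1% lower. HMGN2 raised 1 and lowered 5, against 44.3% of all genes called, 18.7% higher and 25.6% lower. HMGN5 raised 2 and lowered 3, against 41.5% called, 20.7% higher and 20.8% lower. HMGN1_N2swap raised 2 and lowered 4 (37% called, 17.7% higher and 19.3% lower), and HMGN1_N3swap raised 2 and lowered 3 (37.3% called, 17.4% higher and 20% lower). The members' counts lay near or somewhat above these shares, by few genes of 10. That gap was not tested and is not read as a result about the members. The median member change was 0.08 with HMGN1, -0.15 with HMGN2, -0.08 with HMGN5, -0.13 with HMGN1_N2swap and -0.11 with HMGN1_N3swap, against -0.002, -0.06, -0.015, -0.008 and 0.007 over all genes.

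**Figure D2:**
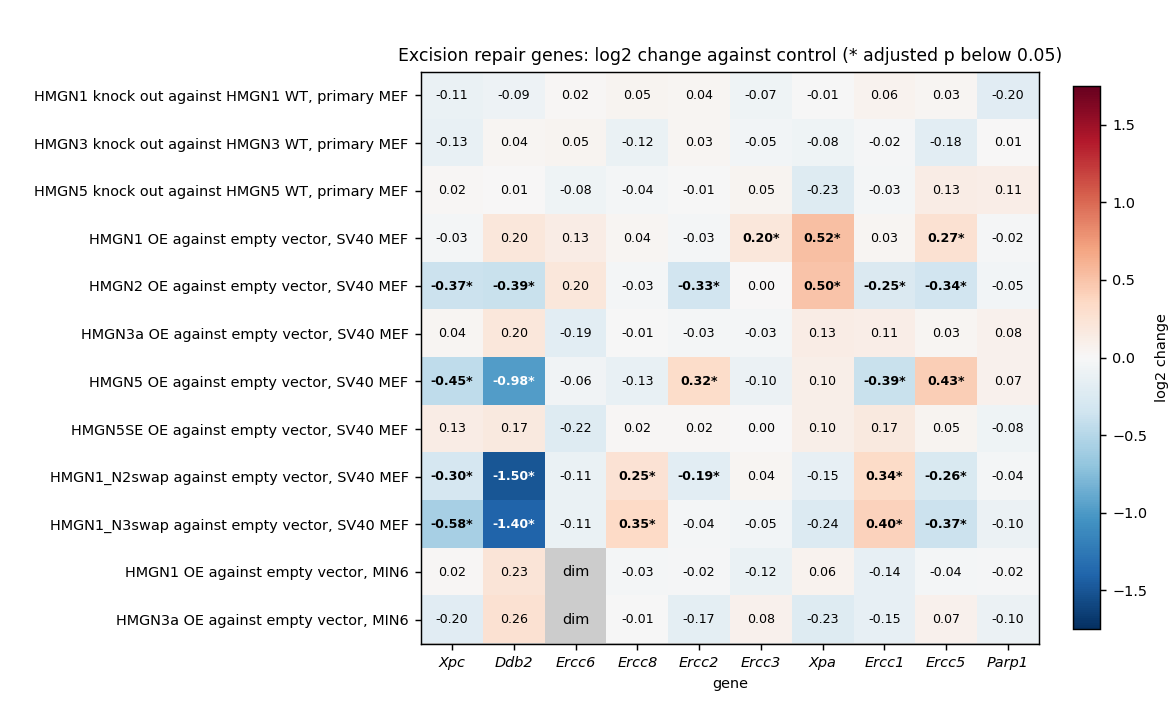
Log2 change of each repair gene against its control in the 12 comparisons, rows being comparisons and columns genes in pathway order, where OE marks infection with that construct. Red is higher and blue lower than the control, an asterisk marks a limma adjusted p below 0.05, and grey cells are genes too dim to test. The 25 calls all lie in 5 SV40 rows, with Ddb2 lowest in the swap rows.

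Lesion recognition showed the largest changes of the 10 genes. Ddb2 encodes the DDB subunit that binds ultraviolet photoproducts and hands them to XPC. It read 4.89, 4.74 and 4.84 with HMGN1_N2swap, and 5.14, 4.79 and 4.85 with HMGN1_N3swap, against 6.30, 6.28 and 6.41 with the vector. Every swap array lay more than 1 log2 unit below every vector array, and the changes were -1.50 ± 0.11 (adjusted p = 6.94e-10) and -1.40 ± 0.11 (adjusted p = 2.15e-09). With HMGN5 it read 5.27, 5.37 and 5.39, a change of -0.98 ± 0.11 against the vector (adjusted p = 1.18e-07). With HMGN2 it read 5.72, 6.05 and 6.05, a change of -0.39 ± 0.11 (adjusted p = 0.00582). In order, HMGN1_N2swap and HMGN1_N3swap were lowest and overlapped each other, HMGN5, HMGN2 and the vector followed without overlap, and HMGN5SE, HMGN3a and HMGN1, with means of 6.50 to 6.53, overlapped each other at the top, HMGN3a and HMGN1 also overlapping the vector.

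The second Ddb2 probe set followed, at -1.27 and -1.37 with the swaps, -0.83 with HMGN5 and -0.53 with HMGN2. With the Actb difference as a covariate, or with the swap array of highest Actb difference left out, the Ddb2 calls of both swaps held. Of 16 measured p53 target genes, HMGN1_N2swap lowered 7 and raised 2, and HMGN1_N3swap lowered 10 and raised 2. Their mean level was 6.73 to 6.81 with HMGN1_N2swap and 6.66 to 6.67 with HMGN1_N3swap, against 6.96 to 6.98 with the vector, while HMGN5 raised 6 and lowered 3 of them. Over all genes, HMGN1_N2swap lowered 19.3% and raised 17.7%, HMGN1_N3swap lowered 20% and raised 17.4%, and HMGN5 raised 20.7% and lowered 20.8%. The part of the p53 targets in the Ddb2 values was not tested.

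Xpc, which opens the helix at a lesion, was lower with the same 4 constructs. It read 5.58, 5.65 and 5.73 with HMGN1_N3swap, against 6.27, 6.18 and 6.24 with the vector, a change of -0.58 ± 0.09 (adjusted p = 4e-05). With HMGN5 it read 5.69, 5.83 and 5.82 (-0.45 ± 0.09, adjusted p = 0.00037), and with HMGN2 5.83, 5.85 and 5.88 (-0.37 ± 0.09, adjusted p = 0.00228). With HMGN1_N2swap it read 6.07, 6.10 and 5.63, so 1 array carried most of the change of -0.30 ± 0.09 (adjusted p = 0.014). Without that array the value was -0.14 (adjusted p = 0.117). HMGN1, at 6.17, 6.17 and 6.25, overlapped the vector.

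Of the transcription-coupled pair, only Ercc8 was called. Ercc8, the Cockayne syndrome A protein of a ubiquitin ligase, rose with both swaps and was not called with the other 5 constructs. It read 6.54, 6.56 and 6.58 with HMGN1_N3swap, against 6.26, 6.26 and 6.10 with the vector, a change of 0.35 ± 0.08 (adjusted p = 0.0014). With HMGN1_N2swap it read 6.35, 6.50 and 6.53 (0.25 ± 0.08, adjusted p = 0.0158). The HMGN1_N2swap call was lost without vector replicate 3 (0.20, adjusted p = 0.0847), without HMGN1_N2swap replicate 2 or 3 (0.23 and 0.22) and with the Actb covariate (0.30, adjusted p = 0.0608). A second Ercc8 probe set, at 5.96 with each swap against 5.86 with the vector, gave 0.09 ± 0.12 and 0.10 ± 0.12 (adjusted p over all probe sets 0.583 and 0.556), so the rise rests on the brightest probe set. Ercc6, the Cockayne syndrome B remodeller, was not called with any construct. It averaged 3.22 to 3.63 over the 8 groups, against a floor of 3.63, and only HMGN2 reached it, so it was tested through that group alone.

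**Figure D3:**
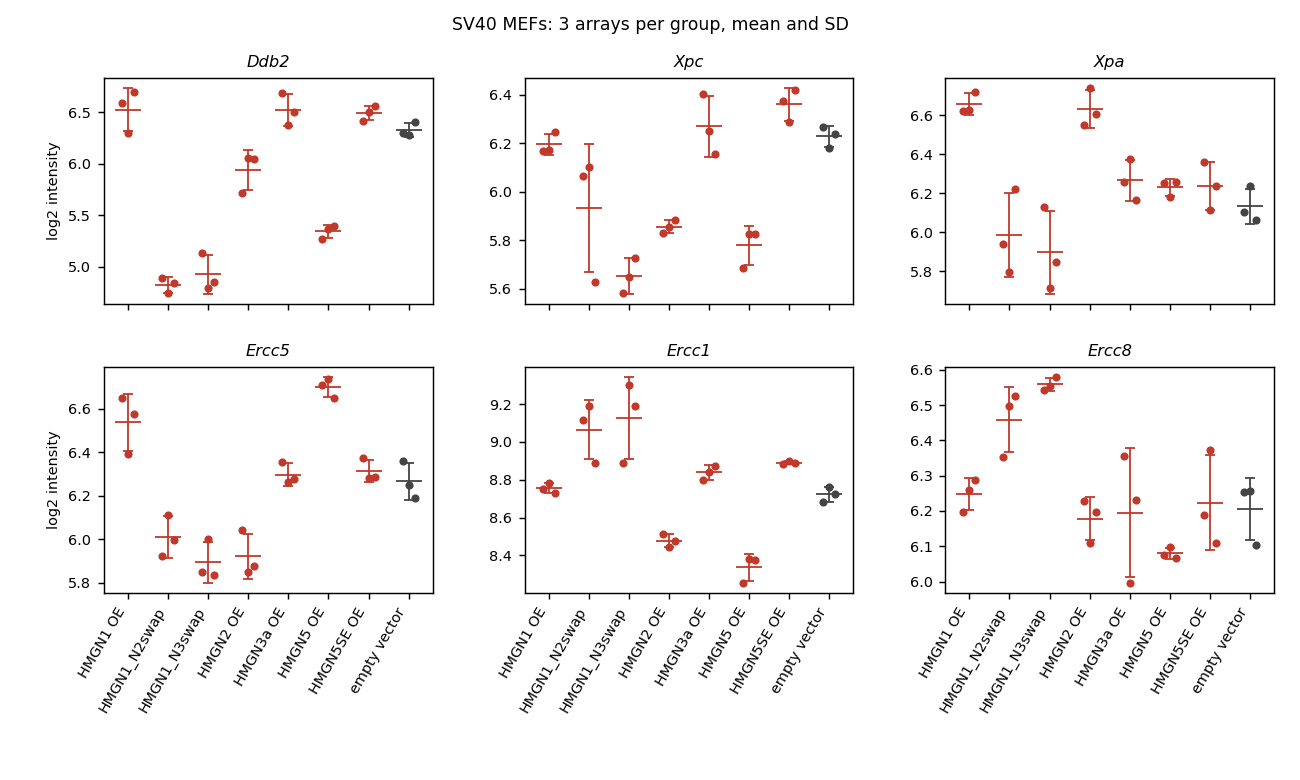
Log2 intensity per array of 6 repair genes in SV40 MEFs, with group mean and SD (n = 3), constructs in red and the empty vector in grey at the right. Ddb2 and Xpc sit lowest with the swaps, HMGN5 and HMGN2, Xpa sits highest with HMGN1 and HMGN2, Ercc5 sits highest with HMGN5, and Ercc1 and Ercc8 highest with the swaps.

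The TFIIH helicases XPD and XPB unwind DNA around the lesion. Ercc2 (XPD) read 6.11, 6.19 and 6.01 with HMGN5, against 5.76, 5.80 and 5.78 with the vector, a rise of 0.32 ± 0.07 (adjusted p = 0.000868). With HMGN2 it read 5.39, 5.42 and 5.54, a change of -0.33 ± 0.07 (adjusted p = 0.000773). The HMGN1_N2swap value of -0.19 ± 0.07 (adjusted p = 0.0417) was lost in most alternatives, at -0.13 and adjusted p = 0.176 after renewed quantile normalization. There the second Ercc2 probe set went the other way, at 0.49 ± 0.10 with HMGN1_N2swap and 0.56 ± 0.10 with HMGN1_N3swap (adjusted p over all probe sets 0.00117 and 0.000328), so Ercc2 has no single direction with the swaps. Ercc3 (XPB) read 7.97, 8.08 and 8.09 with HMGN1, against 7.91, 7.82 and 7.82 with the vector, a change of 0.20 ± 0.06 (adjusted p = 0.0168). That call was lost without vector replicate 2 or 3 or HMGN1 replicate 2 or 3, at 0.17 to 0.18, and at 0.15 after renewed quantile normalization (adjusted p = 0.0558). No other construct moved Ercc3 past the test.

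Xpa, the scaffold that checks the lesion and orders the nucleases, rose with HMGN1 and HMGN2. It read 6.62, 6.63 and 6.72 with HMGN1, and 6.55, 6.74 and 6.60 with HMGN2, against 6.10, 6.23 and 6.06 with the vector. The changes were 0.52 ± 0.10 (adjusted p = 0.000548) and 0.50 ± 0.10 (adjusted p = 0.000478), and no array of either overlapped the vector. With the swaps it read 5.94, 5.80 and 6.22, and 6.13, 5.71 and 5.85, overlapping the vector, and the changes of -0.15 ± 0.10 and -0.24 ± 0.10 were not called. The HMGN1_N3swap value was called without its replicate 1 (-0.35, adjusted p = 0.0097) and the HMGN1_N2swap value without its replicate 3 (-0.26, adjusted p = 0.0428).

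The nuclease genes follow. Ercc5 (XPG) cuts on the 3′ side and was called with all 5 constructs that called any member. It read 6.71, 6.74 and 6.65 with HMGN5, against 6.36, 6.25 and 6.19 with the vector, a rise of 0.43 ± 0.07 (adjusted p = 5.28e-05). With HMGN1 it read 6.65, 6.39 and 6.58, a rise of 0.27 ± 0.07 (adjusted p = 0.00805), which was lost without HMGN1 replicate 1 (0.22, adjusted p = 0.056) and after renewed quantile normalization (0.20, adjusted p = 0.0505). It was lower with HMGN2 at 6.04, 5.85 and 5.88 (-0.34 ± 0.07), with HMGN1_N3swap at 5.85, 6.00 and 5.83 (-0.37 ± 0.07) and with HMGN1_N2swap at 5.92, 6.11 and 5.99 (-0.26 ± 0.07). Adjusted p was 0.000736, 0.000448 and 0.00957, and the last of these was lost without HMGN1_N2swap replicate 1 (-0.21, adjusted p = 0.0516) or vector replicate 1 (-0.21, adjusted p = 0.0581).

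Ercc1, which with XPF cuts on the 5′ side, took the opposite sign to Ercc5 with 3 of the 4 constructs that called both. It read 9.11, 9.19 and 8.89 with HMGN1_N2swap, and 8.89, 9.30 and 9.19 with HMGN1_N3swap, against 8.68, 8.76 and 8.73 with the vector. The rises were 0.34 ± 0.08 and 0.40 ± 0.08 (adjusted p = 0.00239 and 0.000545), but with the Actb difference as a covariate they were 0.07 and 0.16 (adjusted p = 0.585 and 0.174). With HMGN5 it read 8.26, 8.38 and 8.37, a change of -0.39 ± 0.08 (adjusted p = 0.000548). With HMGN2 it read 8.51, 8.44 and 8.48 (-0.25 ± 0.08, adjusted p = 0.0187), a call lost with the Actb covariate (-0.13, adjusted p = 0.123), without vector replicate 2 (-0.23) and without HMGN2 replicate 2 (-0.23). A second Ercc1 probe set gave 0.45, 0.42 and -0.39 with HMGN1_N2swap, HMGN1_N3swap and HMGN5, and -0.03 with HMGN2. The third gave -0.02, 0.23 and 0.13 with the first 3 of these (adjusted p over all probe sets 0.892, 0.0508 and 0.281), so with HMGN5 its sign was the opposite one, and -0.29 with HMGN2. It also gave -0.30 ± 0.09 with HMGN1 (adjusted p over all probe sets 0.0198), where the brightest gave 0.03.

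Parp1 was level in SV40 MEFs by its brightest probe set, with group means of 9.68 to 9.87 and no construct called. Its changes with the swaps were -0.04 ± 0.10 and -0.10 ± 0.10, and turned to 0.34 and 0.25 with the Actb covariate (adjusted p = 0.00276 and 0.0167). With HMGN2 the same covariate gave -0.22 (adjusted p = 0.00457), against -0.05 without it. With HMGN2, 2 of its other probe sets were called lower, at -0.37 ± 0.08 and -0.38 ± 0.13, against -0.05 by the brightest. With HMGN1_N2swap 1 of them was called higher at 0.38 ± 0.13, so Parp1 cannot be given 1 direction there.

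**Figure D4:**
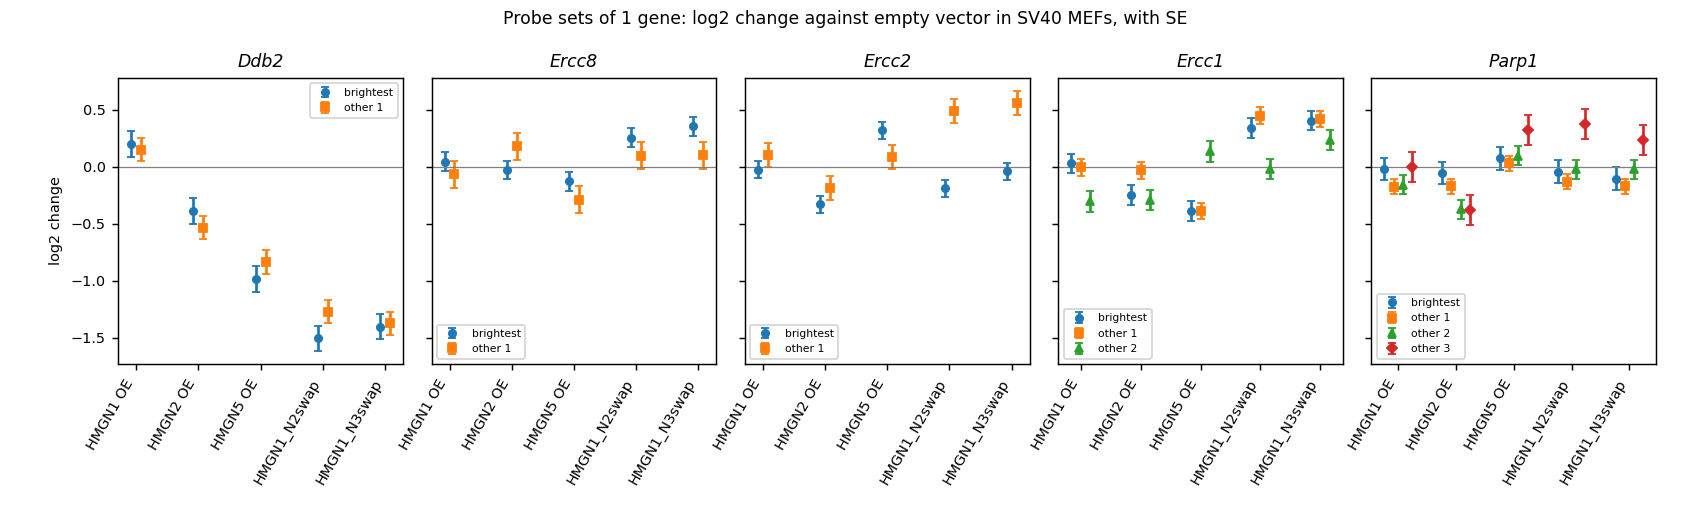
Log2 change against the empty vector, with SE, for every tested probe set of Ddb2, Ercc8, Ercc2, Ercc1 and Parp1 in the 5 SV40 comparisons with calls. Blue circles are the brightest probe set, and other symbols the rest. The Ddb2 probe sets run together, while those of Ercc8, Ercc2, Ercc1 and Parp1 part with the swap constructs.

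Native and altered constructs were then set against each other directly. HMGN1_N2swap against HMGN1 called 7 of 10 members, 2 higher and 5 lower (46.1% of all genes), and HMGN1_N3swap against HMGN1 likewise called 2 higher and 5 lower (50.9%). Ddb2 differed by -1.70 ± 0.11 and -1.60 ± 0.11, Xpa by -0.67 ± 0.10 and -0.76 ± 0.10, and Ercc5 by -0.53 ± 0.07 and -0.64 ± 0.07, with no overlap between arrays. Adjusted p for Xpa was 1.59e-05 and 3.14e-06. Ercc3 differed by -0.16 ± 0.06 and -0.24 ± 0.06, and Xpc by -0.26 ± 0.09 and -0.54 ± 0.09, while Ercc1 and Ercc8 were higher by 0.21 to 0.37. Both comparisons share the HMGN1 arrays. Between HMGN1_N2swap and HMGN1, the Ercc3 and Xpc calls were lost after renewed quantile normalization (-0.10 and -0.12), and both also without HMGN1_N2swap replicate 3 (Ercc3 -0.14, Xpc -0.11, adjusted p = 0.103 and 0.211). Lost too were the Ercc8 call without HMGN1_N2swap replicate 2 (0.19, adjusted p = 0.0956), and the Ercc1 call with the Actb covariate (0.06). Between HMGN1_N3swap and HMGN1, the Ercc1 call was likewise lost with the Actb covariate (0.14, adjusted p = 0.161). The second Ercc8 probe set gave 0.16 with each swap against HMGN1 and was not called (limma adjusted p over all probe sets 0.301 and 0.267).

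HMGN5SE against HMGN5 called 5 of 10 members, 3 higher and 2 lower (42%). Ddb2 was higher by 1.15 ± 0.11 (adjusted p = 1.01e-08), with 6.42, 6.51 and 6.56 against 5.27, 5.37 and 5.39 in HMGN5 pools. Xpc was higher by 0.58 ± 0.09 and Ercc1 by 0.55 ± 0.08, and Ercc5 and Ercc2 were lower, with differences of -0.39 ± 0.07 and -0.30 ± 0.07. Parp1 was not called by its brightest probe set, at -0.15 ± 0.10. Its other probe sets were all called lower, at -0.19 ± 0.07, -0.21 ± 0.08 and -0.66 ± 0.13. Their limma adjusted p over all probe sets was 0.0342, 0.0495 and 0.000429. When the remaining SV40 groups were left out, the brightest was also called lower (limma adjusted p = 0.0482). The comparison of HMGN5SE with HMGN5 shares the HMGN5 arrays with that of HMGN5 against the vector. HMGN5SE called no member against the vector, so the same 5 genes in the other direction are no separate result.

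Among 43 other genes of the pathway in SV40 MEFs, HMGN1 raised 17 and lowered 3, HMGN2 raised 10 and lowered 11, HMGN5 raised 11 and lowered 5, HMGN1_N2swap raised 10 and lowered 7, and HMGN1_N3swap raised 7 and lowered 7. HMGN3a and HMGN5SE moved none. Over all genes the shares called were 29.4%, 44.3%, 41.5%, 37% and 37.3% for those 5 constructs in that order, so the counts with HMGN2, HMGN5 and the swaps were near the background. The median change of the 43 with HMGN1 was 0.18, against -0.002 over all genes, and 8 of the 17 gap filling and ligation genes rose with none lower, where 17.4% of all genes rose. Rfc3 of the clamp loader (0.43), Rpa3 of the single-strand binding complex (0.38) and Pcna, the sliding clamp (0.36), rose with HMGN1, and Gtf2h1, a TFIIH core subunit, fell by 0.48. Gtf2h1 was also lower with HMGN2 (-0.43) and HMGN5 (-0.49). Ercc4, the XPF partner of Ercc1, was at -0.39 with HMGN1_N3swap, where Ercc1 was higher, and Parp3, a relative of Parp1, rose by 0.58 and 0.59 with the swaps. HMGN2 raised Rfc3 (0.57) and Pcna (0.49) and lowered Cul4a, the ligase scaffold of the DDB complex (-0.53), and HMGN5 raised Pole3 (0.61), Pold4 (0.46) and Hmgn1 (0.37). Rfc4 (0.57 and 0.56) and Rfc3 (0.48 and 0.38) rose with the swaps, and Pold1 (0.43) with HMGN1_N2swap.

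Other cell features moved with the same pools. Mitosis genes averaged 9.85 to 9.93 with HMGN1, against 9.56 to 9.59 with the vector, and 12 of 14 were called higher. The mean of 10 fibroblast markers was 8.49 to 8.71 with HMGN2, 8.42 to 8.47 with HMGN5 and 7.68 to 7.79 with the swaps, against 7.28 to 7.33 with the vector. Their part in the repair gene values was not tested. Base excision repair had 3 of 14 genes higher and 1 lower with HMGN1, 2 and 4 with HMGN2, 2 and 3 with HMGN5, 2 and 3 with HMGN1_N2swap, and 1 and 2 with HMGN1_N3swap. Of 6 mismatch repair genes, HMGN1 raised 2 and lowered 0, and the swaps raised 3 and 4 and lowered 0. Read against 29.4% of all genes called with HMGN1, 44.3% with HMGN2, 41.5% with HMGN5, 37% with HMGN1_N2swap and 37.3% with HMGN1_N3swap, the base excision counts lay at or below the background.

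In MIN6 cells neither construct moved a repair transcript past the test by its brightest probe set. HMGN1 called 0 of 9 members (1.15% of all genes) and none at an unadjusted p below 0.05 (2246 of all 13179 genes). HMGN3a called 0 of 9 although 34.1% of all genes were called. Ercc6 was too dim to test there. With HMGN3a 3 members had an unadjusted p below 0.05, as did 5866 of all 13179 genes. Xpc read 7.05, 7.32 and 7.36, against 7.51, 7.40 and 7.43 with the vector (-0.20 ± 0.08, adjusted p = 0.0898). Ddb2 read 7.41, 7.85 and 7.65, against 7.31, 7.32 and 7.49 (0.26 ± 0.11, adjusted p = 0.0851), and was called without HMGN3a replicate 1 (0.37, adjusted p = 0.0152). Ercc1 read 9.07, 9.08 and 8.99, against 9.29, 9.08 and 9.23 (-0.15 ± 0.06, adjusted p = 0.0911), and was called without vector replicate 2 (-0.22, adjusted p = 0.0278). A second Ercc1 probe set was called lower with HMGN3a, at -0.25 ± 0.07 (limma adjusted p over all probe sets 0.0198). The third went the other way, at 0.22 ± 0.10 (adjusted p over all probe sets 0.133).

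Xpa in MIN6 read 7.46, 7.14 and 7.16 with HMGN1, against 7.16, 7.16 and 7.26 with the vector, a change of 0.06 ± 0.11 with a 95% interval of -0.19 to 0.31. Ercc5 read 7.56, 7.56 and 7.67 with HMGN1, against 7.83, 7.39 and 7.70 (-0.04 ± 0.10), and both genes overlapped the vector. Of 43 other pathway genes HMGN3a raised 8 and lowered 5, among them Pole3 (-0.56), the recognition partner Rad23b (-0.39), Parp3 (0.36) and Rfc5 (0.35), and HMGN1 moved none. HMGN3a also lowered 7 of 16 p53 target genes and raised 2. Over all genes it lowered 19.5% and raised 14.5%.

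The HMGN1 effect differed between SV40 MEFs and MIN6 for 3 members in a fit over both lines (20.3% of all genes). The difference was 0.46 ± 0.14 for Xpa, 0.32 ± 0.11 for Ercc5 and 0.31 ± 0.10 for Ercc3, with adjusted p of 0.0175, 0.0397 and 0.0258. For HMGN3a 1 member differed, Ercc1 by 0.27 ± 0.10 (adjusted p = 0.046, 19.9% of all genes). Each was lost under some alternative. Xpa was lost without MIN6 HMGN1 replicate 2 (0.41, adjusted p = 0.0579) or replicate 3 (0.41, adjusted p = 0.0524), and the other 3 after renewed quantile normalization, at 0.22 for Ercc5, 0.24 for Ercc3 and 0.20 for Ercc1, among others.

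Across the 17 group means, each centred on its cell type, Ddb2 and Xpc had a Pearson r of 0.77, Ercc2 and Ercc5 of 0.74, Ercc8 and Ercc1 of 0.64, and Ercc1 and Ercc5 of -0.57. These describe means that share vector arrays and SV40 pools. For Ercc5, called most often, the most similar of 11708 genes were Cog3 (0.90), Mark4 (0.88) and Atxn1l (0.88). For Xpc, with 4 calls like Ddb2 and Ercc1, they were Dmac2l (0.95), Lamtor2 (0.95) and Kctd6 (0.93).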

How the data were processed

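The authors deposited linear intensity values, 1 per probe set and array. The submitters' processing notes name RMA, with no version given in the sources used here, and the values had medians of 5.47 to 5.93 in the 18 primary MEF arrays, 18.7 to 19.6 in the 24 SV40 MEF arrays and 55.5 to 57.6 in the 9 MIN6 arrays, so cell types were fitted apart. The deposited intensities were log2-transformed here with no pseudocount. Of 45101 probe sets, 64 controls were left out. In the platform annotation 34945 probe sets had 1 gene symbol, 932 several and 9160 none, and only the first kind was named. A probe set was kept if at least 1 group mean reached the 40th percentile of that cell type's group means, a floor of 1.99, 3.63 or 5.13 log2 units. The brightest probe set stood for a gene, which left 13674, 13469 and 13179 genes, and 14454 in the fit over all 51 arrays. The members tested were 10, 10 and 9.

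Models were fitted in R 4.3.3 with lmFit and eBayes of limma 3.58.1, giving every group its own mean, and Benjamini-Hochberg adjustment over all genes of the fit, two-sided, and was tested on simulated data. The number of arrays limits the precision, and the median SD within a group was 0.086, 0.086 and 0.079. Alternatives were no dim filter, every probe set on its own, renewed quantile normalization, a replicate block, only the compared groups, and each array omitted. Covariates tried were the male index (primary MEFs) and the Actb 3′ minus 5′ difference (SV40 MEFs). Leaving out the array of highest Actb difference in each swap group was chosen after seeing the data. The replicate numbers did not pair the arrays: over all pairs of groups, the median correlation of same-numbered deviations was -0.008 (primary), 0.006 (SV40) and 0.093 (MIN6). All 10 members were named in every comparison, with up to 4 called genes of largest change from the other pathway genes. The members and lists were chosen with earlier results of these data known. Genes listed for the pathway and not on the array under 1 symbol were not analysed here.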

Additional observations from a re-analysis of the deposited data

Results flagged for a closer look

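Tests of the difference between a construct's effect in SV40 MEFs and its effect in MIN6, in a limma fit over all arrays, passed for 4 repair genes. With HMGN1 the change in SV40 MEFs exceeded that in MIN6 by 0.31 for Ercc3, by 0.32 for Ercc5 and by 0.46 for Xpa. With HMGN3a it exceeded that in MIN6 by 0.27 for Ercc1. The cell lines were normalized apart, and each of these calls was lost when some single array was left out.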

How the results depend on the processing

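With every alternative in its own fit, 0 members were called in each knock out comparison, with HMGN3a and HMGN5SE in SV40 MEFs and with HMGN1 in MIN6, and the Ddb2 calls held in every fit. Elsewhere some counts of members called moved by over 1.5 times. After renewed quantile normalization, HMGN1 in SV40 MEFs called 1 (3 as reported), HMGN3a in MIN6 called 1 (0) and the HMGN1 effect in SV40 MEFs against MIN6 called 1 (3). With only the compared groups, HMGN1_N2swap called 2 against the vector (6) and 4 against HMGN1 (7), and the HMGN1 effect across lines called 1. With the male index as a covariate, HMGN5 WT against HMGN1 WT called 1 (2). The HMGN3a effect across lines called 0 (1) with no dim filter, with every probe set on its own, after quantile normalization and with only the compared groups. Leaving out 1 array at a time gave 0 to 1 for HMGN3a in MIN6, 0 to 3 and 0 to 1 for the HMGN1 and HMGN3a effects across lines, 2 to 3 for HMGN1 in SV40 MEFs, 5 to 6 for HMGN2, 4 to 5 for HMGN1_N2swap, 5 to 7 for HMGN1_N2swap against HMGN1, and 5 to 6 for HMGN1_N3swap. Leaving out the array of highest Actb difference in each swap group gave 5 and 5 against the vector, and 6 and 7 against HMGN1.

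With the Actb covariate the Parp1 change turned, at 0.34 (-0.04 as reported) for HMGN1_N2swap and 0.25 (-0.10) for HMGN1_N3swap against the vector, and at 0.34 (-0.02) and 0.25 (-0.08) against HMGN1. The cause was not tested. With the replicate block, HMGN1_N2swap called 5 members (6) against the vector, Ercc2 being lost, and no other call of a member changed. The numbers did not pair the arrays, with 7 of 45, 6 of 84 and 4 of 9 same-numbered correlations over 0.1 in the 3 cell types.

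Counts over all genes ranged from 7 to 99 (60 as reported) in HMGN1, 31 to 141 (80) in HMGN3 and 0 to 26 (10) in HMGN5 knock out MEFs, and from 39 to 160 (151) for HMGN1 in MIN6. The lowest of HMGN1, and the 0 of HMGN5, came when other groups were kept out of the fit. The 3 differences between knock out effects gave 26 to 277 (69), 9 to 144 (22) and 16 to 116 (58), the WT pairs 2487 to 4393 (4306), 592 to 1661 (1602) and 1618 to 2492 (2355), and HMGN3a and HMGN5SE in SV40 MEFs 0 to 4 (4) and 2 to 4 (2). After renewed quantile normalization the share of higher calls was 43.48% (20%) in HMGN1 knock out MEFs, 48.87% (58.99%) with HMGN1 in SV40 MEFs, and 50.2% (63.16%) and 54.1% (65.07%) for the HMGN1 and HMGN3a effects across lines.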
